A study of Mus musculus with 6 samples.

Results

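The interferon-stimulated genes examined here are 44 mouse genes that interferons are known to induce. They cover the IFIT, IFI and ISG15 genes, the OAS family, and the GBP, IRG and MX GTPases. The other classes are the IRF and STAT factors, the nucleic acid sensors, and modifiers and other effectors. The 44 genes were picked by name, with earlier results of these data known. Of these, 43 had a row among the 17463 gene entries of the deposited table, and Mx1 was not analysed here. RNA was sequenced from cultured endothelial cells of mouse lung (MLECs), which line its vessels, in 3 libraries labelled HEY1-3KR KI and 3 labelled HEY1-WT KI. Both groups came from mice with a Hey1 iEC-KO, a knockout of the Notch-induced repressor Hey1, and both carried a HEY1 iEC-KI, a knock-in of HEY1 in its 3KR or its WT form. No library was from cells without a knockout and a knock-in. By its title the series concerns SUMOylation of HEY1, the attachment of a small protein modifier. The labels do not spell out 3KR, which by convention names lysine-to-arginine substitutions. All cells were untreated, so no interferon was added. The sources used here do not state the Cre line and its promoter, the age and number of the mice, how endothelial cells were purified, or whether each library is its own mouse or culture. The p-values below therefore reflect library-to-library spread alone, which could be technical, and any processing batch that followed genotype cannot be told apart from it.

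Type I interferons such as interferon-alpha and interferon-beta signal through the receptor chains IFNAR1 and IFNAR2, and the kinases JAK1 and TYK2 then phosphorylate STAT proteins, STAT2 among them. STAT2 and IRF9 belong to a complex that binds the interferon-stimulated response element (ISRE), a repeat of GAAA in promoters. Interferon-gamma signals through IFNGR1 and IFNGR2, and promoters of its target genes often hold a palindrome called GAS. Many of the induced genes sense or destroy viral RNA, and several are also expressed at a steady level in resting endothelium and in tissue macrophages.

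Levels were in FPKM, a fragment density per kilobase of transcript relative to the library's total, whose sums ran from 258650 to 265967 over the 6 libraries. Only genes that reached 1 FPKM in 3 or more libraries were tested, with limma on log2(FPKM + 1), and a gene was called at a Benjamini-Hochberg adjusted p below 0.05 over all 11432 genes tested. Spacing of the lowest values gave an approximate depth of 32600000 to 39800000 read or fragment units per library, at which counting error alone is about 15.9% to 17.5% for 1 FPKM in a transcript of 1 kb. Libraries correlated at r = 0.994 to 0.996 within a genotype and at 0.960 to 0.964 between genotypes, over log2 values of genes. The endothelial label was checked against marker lists. Endothelial markers made up 0.173% to 0.180% of summed FPKM in HEY1-3KR KI and 0.104% to 0.109% in HEY1-WT KI. Of these markers, 13 of 14 were called higher in HEY1-3KR KI. They summed to 459 to 465 FPKM in HEY1-3KR KI and 276 to 285 FPKM in HEY1-WT KI. In both genotypes this was below the fibroblast sum and the smooth muscle and pericyte sum given below. Macrophage and monocyte markers made up a larger share, 2.53% to 2.60% in HEY1-3KR KI and 1.86% to 1.87% in HEY1-WT KI. They summed to 6626 to 6900 FPKM in HEY1-3KR KI and 4848 to 4984 FPKM in HEY1-WT KI. Lyz2 alone averaged 3482 and 3138 FPKM of these. Of the 18, 17 were called higher and 1, Itgax, lower. Fibroblast markers summed to 1112 to 1129 FPKM in HEY1-3KR KI and 575 to 581 FPKM in HEY1-WT KI, with 7 of 7 tested called higher, and 6 of 6 without Tcf21, which met the filter through HEY1-3KR KI alone. Lung epithelial markers summed to 436 to 646 FPKM in HEY1-3KR KI and 122 to 227 FPKM in HEY1-WT KI, with 10 of 12 tested called higher. Of those, Epcam, Lamp3 and Nkx2-1 met the filter through HEY1-3KR KI libraries alone and so had to differ, and without them 7 of 9 were higher. Of 8 plasmacytoid dendritic cell markers, 4 were tested. Irf8 and Tcf4 were called higher, while Bst2 and Cox6a2 lay lower and did not pass. Irf8 and Bst2 are also among the interferon-stimulated genes examined here. These markers summed to 48.2 to 61.9 FPKM in HEY1-3KR KI and 50.7 to 60.1 FPKM in HEY1-WT KI. The defining marker Siglech averaged 0.0119 FPKM in HEY1-3KR KI and was listed at 0 in HEY1-WT KI. Neutrophil markers summed to 17.1 to 18.8 FPKM in HEY1-3KR KI and 8.66 to 11.2 FPKM in HEY1-WT KI, with 1 of 2 called higher after leaving out Csf3r, which met the filter through HEY1-3KR KI alone. Smooth muscle and pericyte markers summed to 1061 to 1095 FPKM in HEY1-3KR KI and 1055 to 1079 FPKM in HEY1-WT KI, with 1 of 7 tested called higher and 3 lower, or 1 lower without HEY1-3KR KI 3. Lymphocyte markers summed to 0.753 to 1.36 FPKM in HEY1-3KR KI and 0.363 to 1.07 FPKM in HEY1-WT KI. The part of these other cell types in the results below was not tested. In bulk libraries fewer cells of a type and less RNA per cell cannot be told apart.

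The interferon-stimulated genes did not move as 1 group. Isg15, Ifit2, Ifit3, Oas1a, Ddx58 and Irf7 were among the genes lower in HEY1-3KR KI. Irf8, Ifitm2, Ifitm3, Gbp3, Gbp7 and Samhd1 were among those higher. Bst2, Ifih1, Oasl1, Oasl2, Rsad2 and Zbp1 were among those that did not pass. Of the 37 genes tested, 9 were called higher and 17 lower in HEY1-3KR KI, and 11 did not pass. Calls in either direction covered 70.3% of these genes, against 53.2% of all genes tested, and the libraries of the genotypes did not overlap for 26 of the 37, 70.3%, against 61.1% of all genes tested. Higher calls covered 24.3% of them against 29.9% of all genes tested, and lower calls 45.9% against 23.4%. The split over all genes, 3414 higher and 2670 lower, depended on scaling and became 2911 higher and 3290 lower after quantile normalization, which left 7 of the interferon-stimulated genes higher and 17 lower. Oas3 and Usp18 met the filter only through HEY1-WT KI libraries and so had to differ, and without them 15 of 35 (42.9%) were lower. Calls in either direction were then 24 of 35 (68.6%), and genes without overlap also 24 of 35 (68.6%). The shares of all genes tested still include genes that met the filter through 1 genotype. The number called lower fell to 10 when HEY1-WT KI 3 was left out and was 12 to 14 when any other library was left out, each with fewer samples. The median log2 fold change of the 37 genes was -0.16, against 0.02 for all genes tested, and the median absolute value was 0.23 against 0.17.

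**Figure D1:**
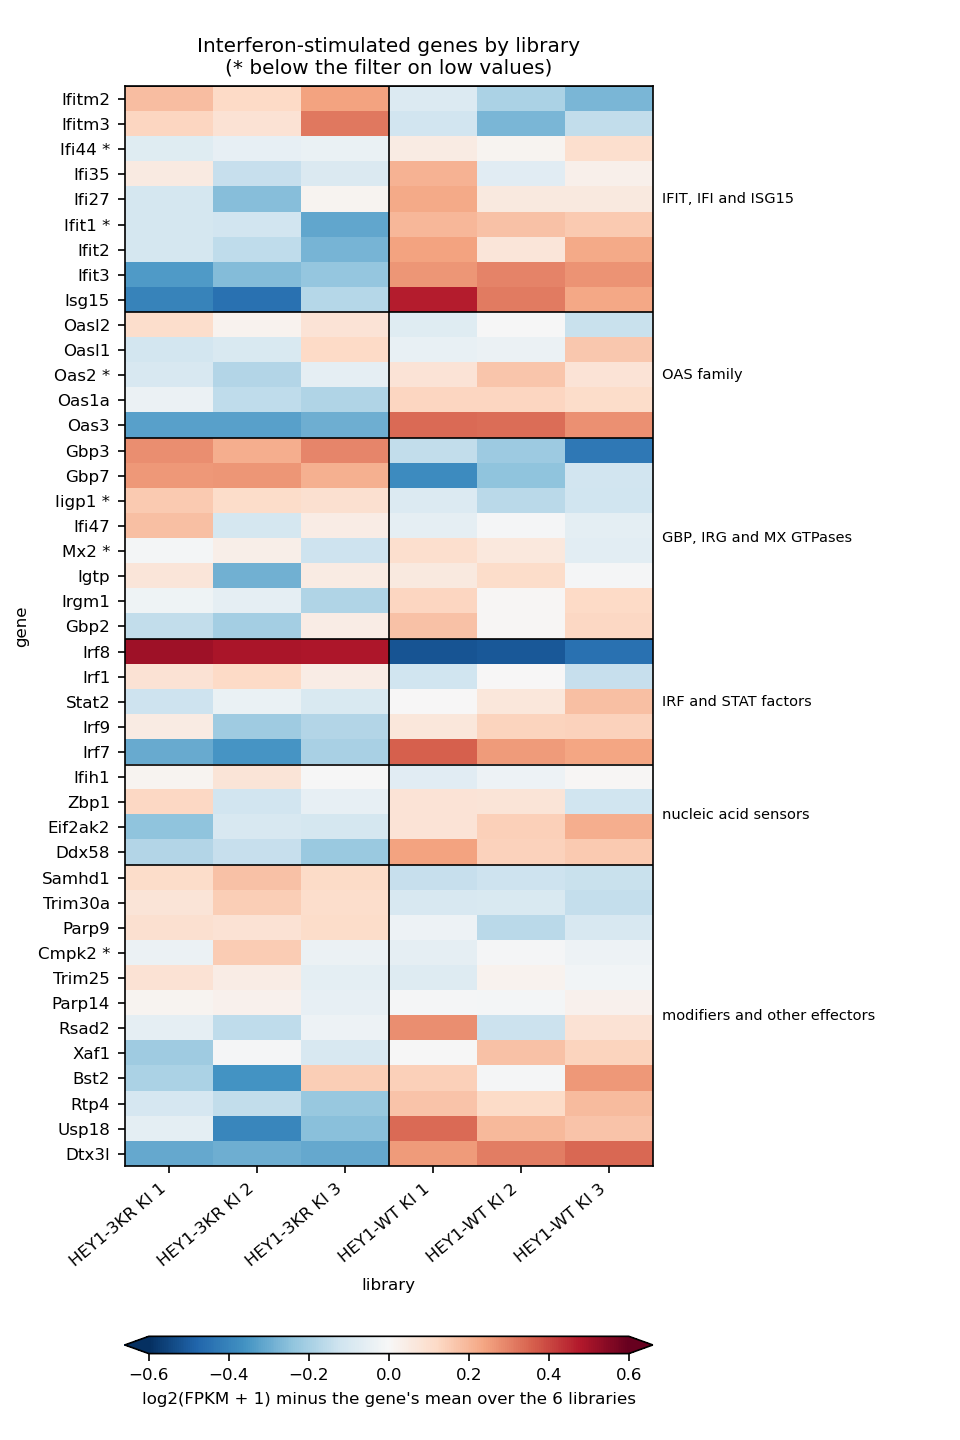
Levels of the interferon-stimulated genes in each library, with HEY1-3KR KI on the left and HEY1-WT KI on the right. Colour gives log2(FPKM + 1) relative to the gene's mean over the 6 libraries, and an asterisk marks the 6 genes below the filter. The OAS family and the class of sensors hold no gene called higher, and the other classes hold genes called in both directions.

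**Figure D2:**
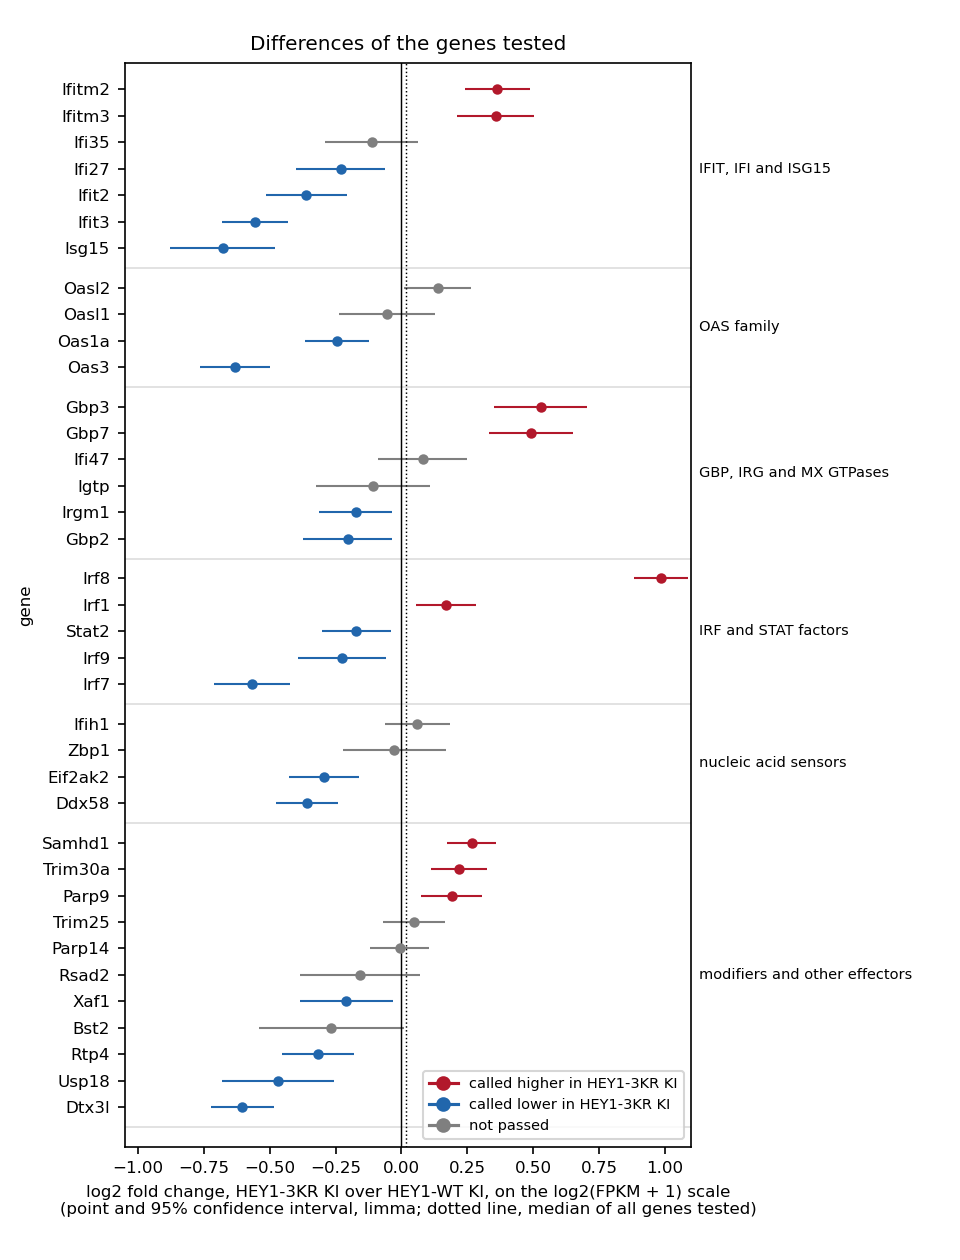
Log2 fold change of HEY1-3KR KI over HEY1-WT KI on the log2(FPKM + 1) scale for the 37 genes tested, as points with 95% confidence intervals from limma, 3 libraries per genotype. Irf8 stands farthest to the right at 0.99 and Isg15 farthest to the left at -0.68.

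Summed FPKM gave another picture from the gene counts, because 2 abundant genes dominated it. All 43 genes with a row summed to 542 to 608 FPKM in HEY1-3KR KI and 491 to 530 FPKM in HEY1-WT KI. Without Ifitm2 and Ifitm3 the sum was 195.9 to 216.5 FPKM in HEY1-3KR KI and 217.5 to 229.5 FPKM in HEY1-WT KI. The sum was thus higher in every HEY1-3KR KI library with the IFITM pair and lower in every one without it.

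Of 21 interferon ligand genes listed, 2 had a row, Ifne and Ifnz, and the other 19 were not analysed here. The sum of these 2 reached at most 0.0786 FPKM in HEY1-3KR KI and 0.112 FPKM in HEY1-WT KI. Receptor and kinase genes were called higher in HEY1-3KR KI for 8 of 9 tested (88.9%, against 29.9% of all genes tested) and lower for none, and the number called higher was 5 when HEY1-3KR KI 2 was left out and 6 or 7 without any other library. Ifngr1, the ligand-binding chain for interferon-gamma, read 41.2, 39.2 and 41.3 FPKM in HEY1-3KR KI and 26.6, 27.0 and 26.5 FPKM in HEY1-WT KI. The groups were well apart, with a log2 fold change of 0.59 ± 0.0355 (SE; limma adjusted p = 2.1e-06). Ifnar1, a chain of the type I receptor, read 17.9, 18.7 and 16.9 FPKM in HEY1-3KR KI and 13.7, 14.1 and 15.0 FPKM in HEY1-WT KI, and its log2 fold change was 0.30 ± 0.05 (limma adjusted p = 9.5e-04). Their partner chains were called higher as well. Ifnar2 averaged 22.8 FPKM in HEY1-3KR KI and 17.6 FPKM in HEY1-WT KI (limma adjusted p = 3.5e-04), and Ifngr2 averaged 19.4 FPKM in HEY1-3KR KI and 15.5 FPKM in HEY1-WT KI (limma adjusted p = 0.00205).

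The transcription factors moved in opposite directions, and all 5 of the IRF and STAT class were called, 2 higher and 3 lower, beside 53.2% of all genes tested. Irf8, a factor of macrophage and dendritic cell development that also acts in interferon responses, lies at chr8:120736358-120756694 (GRCm38.p6, as are all positions below). It read 8.41, 8.29 and 8.26 FPKM in HEY1-3KR KI and 3.62, 3.65 and 3.85 FPKM in HEY1-WT KI. No other member differed with a smaller p, at 2.24-fold and a log2 fold change of 0.99 ± 0.0444 (limma adjusted p = 4.0e-07). Macrophage, endothelial, fibroblast and lung epithelial markers were mostly higher in the same libraries, as given above, and no relation of Irf8 to them was tested. Irf7, which amplifies type I interferon production and is itself induced by ISRE binding, lies at chr7:141263183-141266499. It read 1.85, 1.74 and 2.06 FPKM in HEY1-3KR KI and 3.49, 3.18 and 3.13 FPKM in HEY1-WT KI. Each HEY1-3KR KI library was below each HEY1-WT KI library, and HEY1-WT KI was 1.74-fold above HEY1-3KR KI (log2 fold change -0.57 ± 0.0634, limma adjusted p = 9.0e-05). Irf1, induced through GAS by interferon-gamma, read 10.9, 11.2 and 10.6 FPKM in HEY1-3KR KI and 9.36, 10.3 and 9.20 FPKM in HEY1-WT KI. This small rise (log2 fold change 0.17 ± 0.0501, limma adjusted p = 0.0197) was no longer called after quantile normalization (limma adjusted p = 0.0615) or without HEY1-3KR KI 1 or 2 or HEY1-WT KI 1 or 3 (0.0547 to 0.0723). Irf9 and Stat2, both of the ISRE-binding complex, were lower. Irf9 averaged 4.42 ± 0.548 FPKM in HEY1-3KR KI and 5.32 ± 0.172 FPKM in HEY1-WT KI (SD, n = 3 libraries; limma adjusted p = 0.0278). Stat2 averaged 4.80 ± 0.175 FPKM in HEY1-3KR KI and 5.54 ± 0.413 FPKM in HEY1-WT KI (SD, n = 3 libraries; limma adjusted p = 0.0349). Both calls were lost without the filter and in 4 of the 6 fits that left out a library, with an adjusted p of 0.0753 to 0.0918 for Irf9 (without HEY1-3KR KI 2 or 3 or HEY1-WT KI 2 or 3) and 0.0683 to 0.123 for Stat2 (without HEY1-3KR KI 1 or 3 or HEY1-WT KI 2 or 3).

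**Figure D3:**
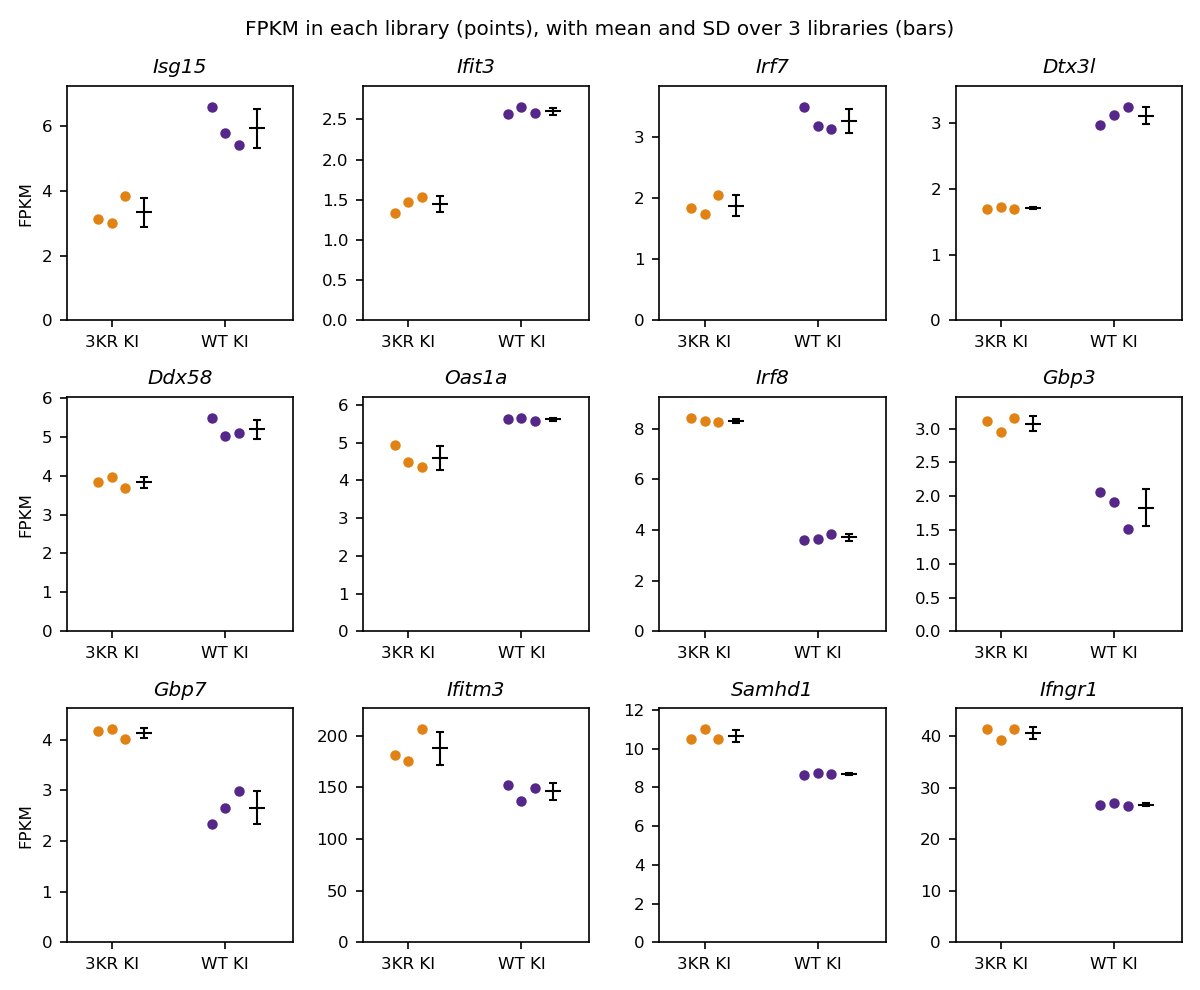
FPKM in each library for single interferon-stimulated genes and receptors, HEY1-3KR KI left of HEY1-WT KI, with points for libraries and bars for the mean and SD over 3 libraries on axes that start at 0. Irf8 is near 8.32 FPKM in HEY1-3KR KI against 3.71 in HEY1-WT KI, while Isg15, Ifit3, Irf7 and Dtx3l lie lower in HEY1-3KR KI.

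Among the IFIT, IFI and ISG15 genes, 2 of 7 tested were called higher (28.6%, near the 29.9% of all genes tested) and 4 lower (57.1%, against 23.4%). The promoter stretches below, from RefSeq on GRCm38.p6 and read 5′ to 3′ on the gene's strand, are shown because a fallen and a risen gene of this class carry the same repeat. Capitals mark the ISRE letters searched, which are GAAA, any 2 bases and GAAA again, or TTTC, any 2 bases and TTTC again for the other strand, with overlapping matches counted apart.
Isg15, chr4:156200846-156200925, minus strand: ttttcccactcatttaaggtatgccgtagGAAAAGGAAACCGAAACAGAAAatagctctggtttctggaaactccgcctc
Ifit3, chr19:34583355-34583434, plus strand: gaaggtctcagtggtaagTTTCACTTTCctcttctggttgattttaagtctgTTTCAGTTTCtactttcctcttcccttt
Ifitm3, chr7:141010695-141010774, minus strand: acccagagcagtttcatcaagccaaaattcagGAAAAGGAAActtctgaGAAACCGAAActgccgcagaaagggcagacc

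Isg15, a ubiquitin-like modifier conjugated to proteins during antiviral responses, lies at chr4:156199424-156200818, and its stretch holds 3 overlapping matches. It read 3.14, 3.00 and 3.85 FPKM in HEY1-3KR KI and 6.575, 5.78 and 5.42 FPKM in HEY1-WT KI. Its highest HEY1-3KR KI value was below its lowest HEY1-WT KI value, HEY1-WT KI was 1.78-fold above HEY1-3KR KI, and the log2 fold change was -0.68 ± 0.0874 (limma adjusted p = 2.1e-04). Ifit3, a gene of the IFIT family, lies at chr19:34583119-34588982 and had 2 matches. Its stretch lies inside that span, in the window of a start site downstream of the gene's first base. It read 1.34, 1.48 and 1.53 FPKM in HEY1-3KR KI and 2.57, 2.65 and 2.58 FPKM in HEY1-WT KI. Replicates were tight and the groups apart, with a log2 fold change of -0.56 ± 0.055 (limma adjusted p = 4.2e-05). Ifit2, an RNA-binding IFIT protein, averaged 3.67 ± 0.283 FPKM in HEY1-3KR KI and 4.996 ± 0.383 FPKM in HEY1-WT KI (SD, n = 3 libraries; limma adjusted p = 0.00188). Ifi27, a small mitochondrial protein gene, averaged 24.9 ± 2.45 FPKM in HEY1-3KR KI and 29.4 ± 2.1 FPKM in HEY1-WT KI (SD, n = 3 libraries; limma adjusted p = 0.0278). That call was lost without the filter (limma adjusted p = 0.0591) and without HEY1-3KR KI 1 or 2 or HEY1-WT KI 1 (0.0653 to 0.0874). RefSeq places all 6057 bases of Ifi27 within the span of its relative Ifi27l2a, chosen for mention after its values were seen, which averaged 7.21 FPKM in HEY1-3KR KI and 2.86 FPKM in HEY1-WT KI. The sources used here do not state how reads were divided between such genes, and the same holds for close copies such as Ifit3 and Ifit3b.

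The IFITM proteins, which block virus entry at membranes, were by far the most abundant members and moved the other way. Ifitm3, at chr7:141009590-141010744, read 181, 176 and 206 FPKM in HEY1-3KR KI and 152, 137 and 149 FPKM in HEY1-WT KI. Ifitm2, at chr7:140954837-140959686, read 179, 170 and 186 FPKM in HEY1-3KR KI and 148, 137 and 130 FPKM in HEY1-WT KI. Every HEY1-3KR KI library was above every HEY1-WT KI library for both genes, which are also close copies of each other. The log2 fold change was 0.36 ± 0.0646 for Ifitm3 (limma adjusted p = 0.00159) and 0.36 ± 0.0535 for Ifitm2 (limma adjusted p = 4.7e-04). Ifi35, a partner of the NMI protein, overlapped between groups and did not pass, with a log2 fold change of -0.11 and a 95% interval of -0.29 to 0.06.

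In the OAS family, whose members make the 2-5A signal that switches on RNase L or resemble the enzymes that do, 2 of 4 tested were called lower and none higher. Oas3 met the filter through HEY1-WT KI alone and so had to differ, which leaves 1 of 3 lower, beside 23.4% of all genes tested, also when any 1 HEY1-WT KI library was left out. The median log2 fold change of the class was -0.15, and 0.01 without HEY1-WT KI 3. The Oas3 stretch is shown as that of the member with the largest fold among those tested.
Oas3, chr5:120777690-120777769, minus strand: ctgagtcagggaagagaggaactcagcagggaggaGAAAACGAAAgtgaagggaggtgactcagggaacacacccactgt

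Oas3, at chr5:120753098-120777684, read 0.337, 0.339 and 0.369 FPKM in HEY1-3KR KI and 1.12, 1.12 and 1.03 FPKM in HEY1-WT KI. HEY1-WT KI was 3.13-fold above HEY1-3KR KI, and the log2 fold change was -0.63 ± 0.0585, at levels where counting error is large. Its p is left out because Oas3 met the filter through HEY1-WT KI alone. Oas1a read 4.94, 4.48 and 4.36 FPKM in HEY1-3KR KI and 5.64, 5.65 and 5.57 FPKM in HEY1-WT KI. All HEY1-3KR KI values were lower, with a log2 fold change of -0.24 ± 0.0526 (limma adjusted p = 0.00414), and Oas1a shares sequence with neighbouring Oas1 copies, so its reads may be split. Oasl2, an OAS-like protein with ubiquitin-like domains, read 3.58, 3.31 and 3.51 FPKM in HEY1-3KR KI and 3.05, 3.25 and 2.88 FPKM in HEY1-WT KI. Its groups did not overlap but its difference did not pass, at a log2 fold change of 0.14 (95% interval 0.01 to 0.26, limma adjusted p = 0.0639), and without the variance trend it was called (limma adjusted p = 0.0453). Oasl1 overlapped between groups, with a log2 fold change of -0.06 and a 95% interval of -0.24 to 0.13.

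In the class of nucleic acid sensors, 2 of 4 tested were called, both lower, beside 23.4% of all genes tested, and they were called lower in every fit. Other sensors were listed with the adaptors below and did not share this direction. Tlr7 was called higher there (log2 fold change 0.60, limma adjusted p = 2.8e-05). Cgas was called higher too (0.24, limma adjusted p = 0.0393), though not without the filter (limma adjusted p = 0.073). Dhx58 and Tlr3 did not pass, and Tlr9 met the filter through HEY1-3KR KI alone. Ddx58, which encodes the cytosolic RNA sensor RIG-I, lies at chr4:40203777-40239825, and its ISRE letters begin 2 bases after the start site.
Ddx58, chr4:40239779-40239858, minus strand: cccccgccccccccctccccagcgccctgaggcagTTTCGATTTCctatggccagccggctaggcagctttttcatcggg

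Ddx58 read 3.83, 3.96 and 3.69 FPKM in HEY1-3KR KI and 5.47, 5.02 and 5.09 FPKM in HEY1-WT KI. The groups were apart, with a log2 fold change of -0.36 ± 0.0513 (limma adjusted p = 4.0e-04). Eif2ak2, the kinase PKR that stops translation on double-stranded RNA, read 5.40, 6.09 and 6.04 FPKM in HEY1-3KR KI and 7.02, 7.36 and 7.81 FPKM in HEY1-WT KI. It too was lower in each HEY1-3KR KI library (log2 fold change -0.30 ± 0.0583, limma adjusted p = 0.00262). Ifih1, the related sensor MDA5, read 2.23, 2.36 and 2.19 FPKM in HEY1-3KR KI and 2.04, 2.12 and 2.20 FPKM in HEY1-WT KI. Its groups overlapped, and the 95% interval of its log2 fold change ran from -0.06 to 0.18. Zbp1, a sensor of Z-form nucleic acid, also overlapped, with an interval of -0.22 to 0.17.

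The GTPases that attack membranes of intracellular pathogens had 2 of 6 tested called higher and 2 lower (33.3% each), shares near the 29.9% higher and 23.4% lower of all genes tested. Neither lower call held without HEY1-3KR KI 2, HEY1-WT KI 1 or HEY1-WT KI 3. The 3 guanylate-binding protein genes lie close together on chromosome 3, and their stretches are shown because neighbours that share the repeat differed in direction.
Gbp7, chr3:142530248-142530327, plus strand: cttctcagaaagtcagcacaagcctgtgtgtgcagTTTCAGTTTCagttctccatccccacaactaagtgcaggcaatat
Gbp3, chr3:142559967-142560046, plus strand: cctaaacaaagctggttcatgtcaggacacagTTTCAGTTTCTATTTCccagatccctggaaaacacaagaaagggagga
Gbp2, chr3:142620569-142620648, plus strand: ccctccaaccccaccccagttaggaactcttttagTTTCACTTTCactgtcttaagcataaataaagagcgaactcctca

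Gbp7, at chr3:142530336-142550151, read 4.18, 4.20 and 4.01 FPKM in HEY1-3KR KI and 2.33, 2.65 and 2.99 FPKM in HEY1-WT KI. Gbp3, at chr3:142560016-142573213, read 3.12, 2.95 and 3.15 FPKM in HEY1-3KR KI and 2.06, 1.92 and 1.52 FPKM in HEY1-WT KI. Both were higher in every HEY1-3KR KI library, with log2 fold changes of 0.49 ± 0.0699 for Gbp7 (limma adjusted p = 3.9e-04) and 0.53 ± 0.0768 for Gbp3 (limma adjusted p = 4.5e-04). Gbp2, at chr3:142620663-142638008, read 6.34, 6.07 and 7.39 FPKM in HEY1-3KR KI and 8.21, 7.17 and 7.87 FPKM in HEY1-WT KI. It was called lower although its groups overlapped (log2 fold change -0.20 ± 0.0737, limma adjusted p = 0.0438), and the call was lost without the filter (limma adjusted p = 0.0813) and without HEY1-3KR KI 1 or 2 or HEY1-WT KI 1 or 3 (0.108 to 0.14). Irgm1, an immunity-related GTPase that governs the others, read 3.94, 3.84 and 3.44 FPKM in HEY1-3KR KI and 4.51, 4.06 and 4.47 FPKM in HEY1-WT KI. Its log2 fold change of -0.17 ± 0.0609 (limma adjusted p = 0.0393) was not called without the filter (limma adjusted p = 0.0684), with replicate number as a block (limma adjusted p = 0.0539) or without HEY1-3KR KI 2 or 3 or HEY1-WT KI 1 or 3 (0.0597 to 0.127). Igtp and Ifi47, members of the same GTPase family, overlapped between groups, with 95% intervals of the log2 fold change of -0.32 to 0.11 for Igtp and -0.09 to 0.25 for Ifi47.

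The modifiers and other effectors held 3 genes called higher (27.3%, near the 29.9% of all genes tested) and 4 lower (36.4%, against 23.4%) of 11 tested. The lower calls were 3 of 10 without Usp18, which met the filter through HEY1-WT KI alone, and 2 without HEY1-WT KI 3. Dtx3l, a ubiquitin ligase at chr16:35926515-35939027, read 1.69, 1.72 and 1.70 FPKM in HEY1-3KR KI and 2.97, 3.12 and 3.23 FPKM in HEY1-WT KI. It was the lowest in p of this class, with HEY1-WT KI 1.83-fold above HEY1-3KR KI (log2 fold change -0.60 ± 0.0518, limma adjusted p = 1.8e-05). Parp9, whose protein forms a complex with DTX3L, lies next to it at chr16:35938470-35972621 and moved the other way, at 4.57 ± 0.0449 FPKM in HEY1-3KR KI and 3.88 ± 0.216 FPKM in HEY1-WT KI (SD, n = 3 libraries; limma adjusted p = 0.0119). That rise was not called after quantile normalization (limma adjusted p = 0.0769). The pair overlap by 558 bases, and since the sources used here do not state whether counting used strand, reads from those bases cannot be told apart. Parp14, their neighbour and another ADP-ribosyltransferase, overlapped between groups, with a 95% interval of the log2 fold change of -0.12 to 0.11.

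Samhd1, which hydrolyses the nucleotides that retroviruses need, read 10.5, 11.0 and 10.5 FPKM in HEY1-3KR KI and 8.66, 8.75 and 8.68 FPKM in HEY1-WT KI. The rise was even over libraries (log2 fold change 0.27 ± 0.0401, limma adjusted p = 5.5e-04). Trim30a, a TRIM protein known in mouse to restrain Toll-like receptor signalling, averaged 4.92 ± 0.151 FPKM in HEY1-3KR KI and 4.08 ± 0.1 FPKM in HEY1-WT KI (SD, n = 3 libraries; limma adjusted p = 0.00408). Rtp4, a Golgi chaperone also known as an interferon-induced inhibitor, read 1.22, 1.14 and 1.03 FPKM in HEY1-3KR KI and 1.67, 1.57 and 1.71 FPKM in HEY1-WT KI. All HEY1-3KR KI libraries were lower (log2 fold change -0.32 ± 0.0597, limma adjusted p = 0.00205), and Rtp4 overlaps Masp1 by 1022 bases. Usp18, which removes ISG15 from proteins and damps IFNAR signalling, averaged 0.595 ± 0.186 FPKM in HEY1-3KR KI and 1.20 ± 0.142 FPKM in HEY1-WT KI (SD, n = 3 libraries). Its p is left out because Usp18 met the filter through HEY1-WT KI alone and so had to differ. Xaf1, a partner of the apoptosis inhibitor XIAP, averaged 1.009 ± 0.145 FPKM in HEY1-3KR KI and 1.32 ± 0.147 FPKM in HEY1-WT KI (SD, n = 3 libraries; limma adjusted p = 0.0476). Its call was lost with both smaller pseudocounts, without the filter, and without HEY1-3KR KI 1 or 3 or HEY1-WT KI 2 or 3, at an adjusted p of 0.0516 to 0.155.

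Bst2, also called tetherin, which holds budding virus at the cell surface, read 36.7, 32.5 and 46.6 FPKM in HEY1-3KR KI and 46.5, 41.6 and 50.5 FPKM in HEY1-WT KI. The groups overlapped through HEY1-3KR KI 3, and the difference did not pass (log2 fold change -0.27, 95% interval -0.54 to 0.01, limma adjusted p = 0.093). It was called lower without that library (limma adjusted p = 0.00389) and with replicate number as a block (limma adjusted p = 0.00725). Rsad2, the antiviral enzyme viperin, overlapped between groups and did not pass (95% interval -0.39 to 0.07), but was called lower without HEY1-WT KI 2 (limma adjusted p = 0.0352). Trim25, the ubiquitin ligase that acts on RIG-I, overlapped, with an interval of -0.07 to 0.16.

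A group of 6 genes stayed below the filter on low values. In a fit without that filter, which tested 17171 genes and called 39.3% of them, 4 of the 6 passed with groups that did not overlap. Ifit1, the cap-sensing IFIT protein, averaged 0.538 ± 0.12 FPKM in HEY1-3KR KI and 0.963 ± 0.0267 FPKM in HEY1-WT KI (SD, n = 3 libraries; limma adjusted p = 0.00405). Oas2 averaged 0.426 ± 0.0608 FPKM in HEY1-3KR KI and 0.658 ± 0.0552 FPKM in HEY1-WT KI (SD, n = 3 libraries; limma adjusted p = 0.00828), and Ifi44, at under 0.21 FPKM in every library, was lower as well (limma adjusted p = 0.0182). Iigp1, an immunity-related GTPase, was the exception at 0.988 ± 0.0435 FPKM in HEY1-3KR KI and 0.682 ± 0.0455 FPKM in HEY1-WT KI (SD, n = 3 libraries; limma adjusted p = 0.00354). Mx2 and the mitochondrial nucleotide kinase Cmpk2 overlapped between groups, and Mx2, which RefSeq annotates as a pseudogene in the reference strain, averaged 0.176 FPKM in HEY1-3KR KI and 0.233 FPKM in HEY1-WT KI.

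Other genes of the pathway were followed through lists of sensor adaptors, inhibitors, further interferon-stimulated genes and antigen presentation. Of 16 sensor adaptors and kinases, 8 were called higher (beside 29.9% of all genes tested) and 2, Irf3 and Mavs, lower. Over the fits that left out a library, 5 to 7 were higher and 0 to 2 lower, with the fewest higher, 5, without HEY1-3KR KI 3. Irf5, a factor acting downstream of Toll-like receptors in myeloid cells, averaged 15.5 FPKM in HEY1-3KR KI and 6.46 FPKM in HEY1-WT KI (limma adjusted p = 3.7e-07). The endosomal RNA receptor Tlr7 averaged 11.3 FPKM in HEY1-3KR KI and 7.12 FPKM in HEY1-WT KI (limma adjusted p = 2.8e-05), and its adaptor Myd88 averaged 17.0 FPKM in HEY1-3KR KI and 11.9 FPKM in HEY1-WT KI (limma adjusted p = 4.6e-05). Tlr9, the DNA receptor, met the filter only through HEY1-3KR KI libraries, which leaves 7 of 15 higher without it, at 1.16 FPKM in HEY1-3KR KI against 0.273 FPKM in HEY1-WT KI.

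Of 8 tested inhibitors of interferon signalling, 3 were called higher (37.5%, against 29.9% of all genes tested) and 1, Usp18, lower (12.5%, against 23.4%). Usp18 met the filter through HEY1-WT KI alone, and none of the other 7 was lower. Ptpn6, the phosphatase SHP-1 of blood cells, averaged 25.9 FPKM in HEY1-3KR KI and 13.7 FPKM in HEY1-WT KI (limma adjusted p = 5.6e-07). Irf2, which competes with IRF1, averaged 4.98 FPKM in HEY1-3KR KI and 3.33 FPKM in HEY1-WT KI (limma adjusted p = 2.8e-04), and Pias1, a SUMO ligase that restrains STAT signalling, averaged 5.37 FPKM in HEY1-3KR KI and 4.17 FPKM in HEY1-WT KI (limma adjusted p = 0.0019). Ptpn2, a phosphatase of JAK1, averaged 8.61 FPKM in HEY1-3KR KI and 7.83 FPKM in HEY1-WT KI and did not pass (limma adjusted p = 0.178), except without HEY1-WT KI 1 (limma adjusted p = 0.0361).

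A wider list of 77 further interferon-stimulated genes, of which 55 were tested, had 24 called higher (43.6%, against 29.9% of all genes tested) and 8 lower (14.5%, against 23.4%), with a median log2 fold change of 0.09. Without Gbp8, Ifitm1, Ms4a4c and Tnfsf10, which met the filter through HEY1-3KR KI alone and so had to differ, 20 of 51 were higher. Its higher calls were 16 without HEY1-3KR KI 1 and 18 to 22 without any other library. Its lower calls were 4 without HEY1-3KR KI 3 and 4 without HEY1-WT KI 3, and 5 to 9 without any other library. Scaling raised them, to 11 lower with 23 higher after median-of-ratios scaling and 11 lower with 20 higher after quantile normalization. With a filter of 5 FPKM, 24 of these genes were tested, 7 higher and 6 lower. The difference in lower calls from the 45.9% of the 37 genes was not tested. Ly6e, a membrane protein with antiviral activity, averaged 111 FPKM in HEY1-3KR KI and 61.3 FPKM in HEY1-WT KI (limma adjusted p = 2.2e-06). Slfn9, a Schlafen family gene, averaged 8.55 FPKM in HEY1-3KR KI and 5.08 FPKM in HEY1-WT KI (limma adjusted p = 4.8e-06). Ifi30, a lysosomal thiol reductase that prepares antigens, averaged 199.9 FPKM in HEY1-3KR KI and 137.7 FPKM in HEY1-WT KI (limma adjusted p = 7.0e-06). Ms4a4c averaged 2.16 FPKM in HEY1-3KR KI and 0.428 FPKM in HEY1-WT KI.

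Genes of antigen presentation that interferon-gamma induces had 5 of 9 tested called higher (55.6%, against 29.9% of all genes tested). The peptide transporter Tap1 was the 1 called lower. Nlrc5 met the filter through HEY1-3KR KI alone, and without it 5 of 8 were higher. The counts of 5 higher and 1 lower were the same without any single library, with 8 tested when a HEY1-3KR KI library was left out. Cd74, the invariant chain of class II molecules and a gene of antigen-presenting cells, averaged 23.2 FPKM in HEY1-3KR KI and 3.18 FPKM in HEY1-WT KI, 7.31-fold (limma adjusted p = 5.0e-08). The immunoproteasome subunits were higher together. Psmb8 averaged 9.44 FPKM in HEY1-3KR KI and 5.32 FPKM in HEY1-WT KI (limma adjusted p = 3.0e-05), Psmb9 averaged 2.37 FPKM in HEY1-3KR KI and 1.32 FPKM in HEY1-WT KI (limma adjusted p = 3.7e-05), and Psmb10 averaged 16.3 FPKM in HEY1-3KR KI and 11.99 FPKM in HEY1-WT KI (limma adjusted p = 9.0e-05). Macrophage and monocyte, endothelial, fibroblast and lung epithelial markers mostly moved in the same direction as Cd74, Ptpn6, Irf5 and Irf8. The part of any of these cell types in these values was not tested.

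**Figure D4:**
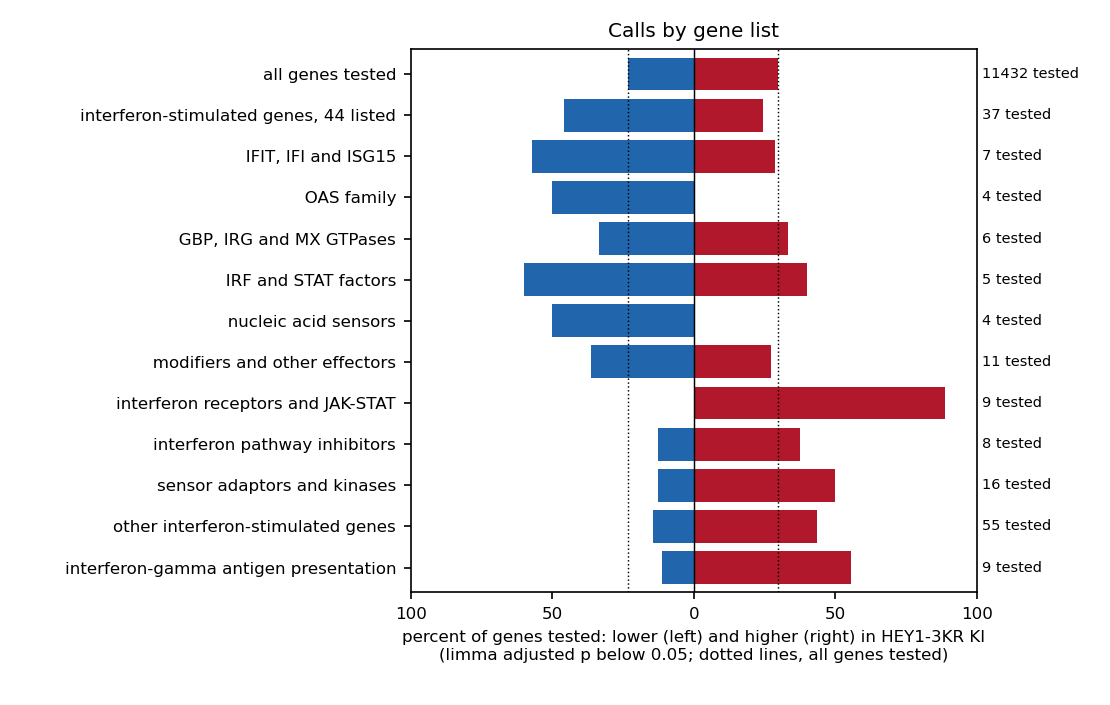
Percent of the tested genes of each class and list called lower (left) and higher (right) in HEY1-3KR KI against HEY1-WT KI at a limma adjusted p below 0.05, with dotted lines at 23.4% lower and 29.9% higher for all genes tested. Receptors and JAK-STAT genes lie on the higher side, at 8 of 9. The OAS family and the class of sensors have lower calls alone, while the sensors Tlr7 and Cgas, called higher, are in the adaptor list.

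The promoters were searched for 3 motifs on both strands in RefSeq windows of 300 bases, and 34 of the 43 genes had a window. ISRE letters were in 19 of the 34 (55.9%), against 3.74% of tested genes with a window and 3.44% of all windows. They stood in 5 of 8 genes called higher, 9 of 14 called lower and 4 of 9 that did not pass, so matches occurred with either direction. The 9 include Oas3, which met the filter through HEY1-WT KI alone and so had to differ. GAS letters, TTCNNNGAA, were in 11 of the 34 (32.4%), against 8.18% of tested genes and 8.3% of all windows. They stood in 5 of 8 genes called higher, 3 of 14 called lower and 3 of 9 that did not pass. The 2 stretches below show GAS letters in capitals in the factors called higher.
Irf8, chr8:120736160-120736239, plus strand: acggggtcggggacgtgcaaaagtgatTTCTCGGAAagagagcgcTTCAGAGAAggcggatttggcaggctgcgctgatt
Irf1, chr11:53769888-53769967, plus strand: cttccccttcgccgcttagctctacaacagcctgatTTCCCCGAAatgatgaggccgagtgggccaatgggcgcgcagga

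CACGTG, an E-box of the kind that HEY proteins are known to bind, was in 1 of the 34 windows (2.94%), that of Trim25, against 12.1% of tested genes with a window and 7.15% of all windows. These are matches of letters in a short window and not measured sites, and no factor binding was measured in these libraries.

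**Figure D5:**
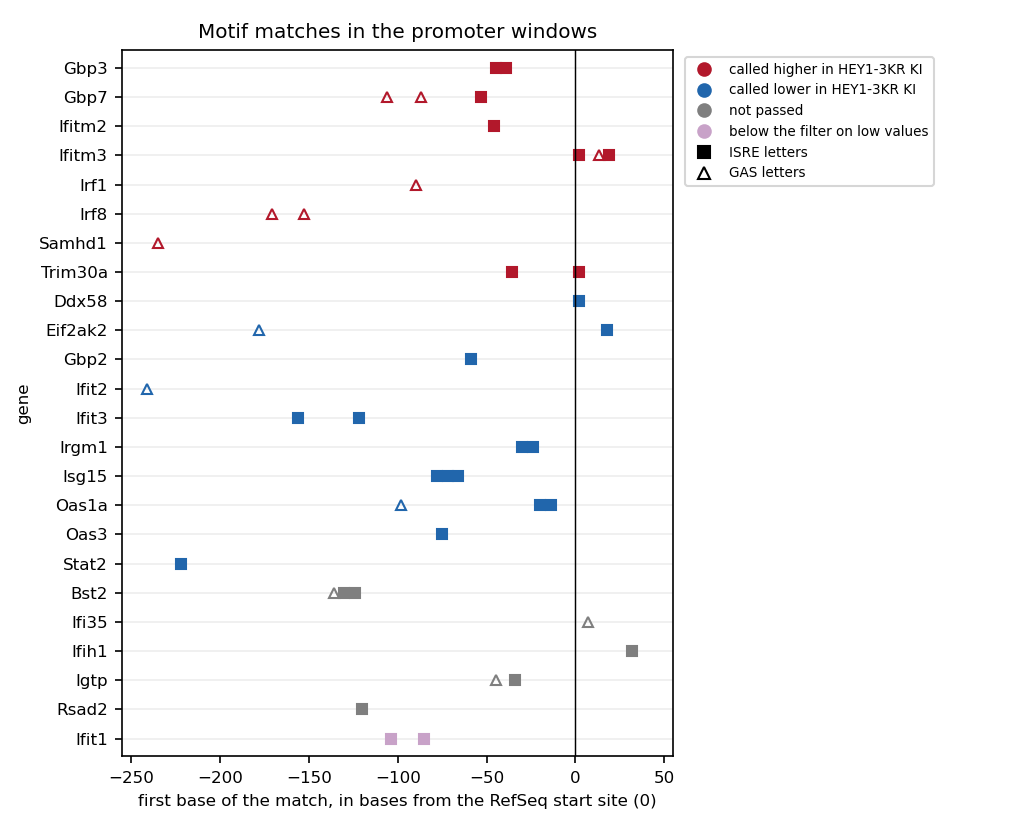
Positions of ISRE letters (squares) and GAS letters (triangles) in the promoter windows of the interferon-stimulated genes that hold either, in bases from the RefSeq start site, with 1 line per gene, coloured and grouped by its call. ISRE matches occur in 5 of 8 genes called higher and 9 of 14 called lower, with Oas3, which met the filter through HEY1-WT KI alone, among the 9.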

How the data were processed

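The file headers show FPKM values for each of the 6 libraries, as deposited by the authors. StringTie 1.3.3b, HISAT2 2.1.0, SAMtools 1.9, FastQC 0.19.7 and build mm10 are listed in the submitters' processing notes. The sources used here do not state the annotation, the use of strand or the treatment of shared reads. Because FPKM is relative to a library's total, a rise of abundant genes lowers the rest. Column sums do not give the depth. For 2396 single-transcript genes, the spacing of low values gave an approximate depth, with 46.2% to 58.4% of low values within 0.1 of a whole multiple (20% if even), so whole reads could not be recovered and the test stayed on FPKM.

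Genes that reached 1 FPKM in 3 or more of the 6 libraries were compared as log2(FPKM + 1), a scale that understates changes of low genes, by limma 3.58.1 in R 4.3.3 (lmFit, eBayes with variance trend, two-sided, no covariate) with Benjamini-Hochberg adjustment over 11432 genes. The code was tested on simulated data. Folds are ratios of mean FPKM. Positions and promoter windows (250 bases before the start site to 50 after it) are RefSeq GRCm38.p6, the assembly of mm10. Python 3.11.15 with pandas 2.3.3, numpy 2.4.6 and matplotlib 3.10.9 made tables and figures.

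The genes and lists were chosen with earlier results of these data known. Values per library are given for up to 3 genes of smallest p and the most abundant gene of each class, with Ifnar1 and Ifngr1, and means for up to 4 genes of smallest p in each further list; genes named beyond that were chosen after their values were seen. A further gene that this rule names is not reported here. Alternatives were other pseudocounts (0.1 and 0.01), no filter or 5 FPKM, median-of-ratios and quantile scaling, no variance trend, replicate number as a block, and each library left out.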

Additional observations from a re-analysis of the deposited data

How the results depend on the processing

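All 26 called interferon-stimulated genes kept their sign in every setting in which they were tested, and 18 never lost their call in those settings. The 18 include Oas3 and Usp18, which met the filter through HEY1-WT KI alone and so had to differ. A filter of 5 FPKM tested 16 of the 37 interferon-stimulated genes, with 5 higher and 8 lower. The median log2 fold change was -0.16 as reported, -0.11 without a filter, -0.20 with a pseudocount of 0.01, -0.20 with 0.1 and -0.23 after quantile normalization. Leaving out a library each gave 5168 to 5467 genes called of all tested, 8 to 9 of the interferon-stimulated genes higher, 10 to 14 lower, and a median of -0.17 to -0.092, the last without HEY1-WT KI 1. Reversals were limited to genes that did not pass: Ifih1 became -0.0067 after quantile normalization, Igtp 0.0083 and Zbp1 0.023 without HEY1-3KR KI 2, Zbp1 0.0069 without HEY1-WT KI 1 and 0.0055 without HEY1-WT KI 2, Parp14 0.016 without HEY1-3KR KI 3 and 0.0054 without HEY1-WT KI 3, and Oasl1 0.011 without HEY1-WT KI 3 (log2 fold changes). Their lowest values with a library left out were -0.17 for Igtp, -0.095 for Zbp1, -0.0201 for Parp14 and -0.13 for Oasl1. The cause was not tested. Without any 1 HEY1-WT KI library, Oas3 and Usp18 fell below the filter. Deviations of libraries sharing a replicate number correlated at -0.191, 0.254 and -0.272, so the numbers were not taken to pair the libraries; with replicate number as a block, 6134 genes were called and 9 interferon-stimulated genes were higher and 17 lower, Irgm1 being lost and Bst2 gained. Scaling moved the median of all genes by at most 0.042 (log2). Low levels, below 1 FPKM for Oas3 in HEY1-3KR KI, limit the precision of several members.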
